A study of Mus musculus with 28 samples.

Results

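CD4+ T cells of wild-type mice that had been on anti-CD3 for 24 h were compared with wild-type cells that had been on it for 4 h, across all genes on the array. The members are the 7 wild-type arrays labelled 24 h or 4 h, of 28 in the series, chosen by strain and time as the labels give them. The 24 h group held 2 arrays labelled biological and the 4 h group held 3. The other 2 arrays of the 24 h time point are labelled technical, so they entered no main test and served as a check. Every sample was total CD4+ T cells from spleens of 12-week-old female mice. The wild-type strain was C57BL/6. Both groups were cultured in complete RPMI medium on plate-bound antibody to CD3 at 0.1 µg/ml, and the labels name no second stimulus. Unstimulated wild-type cells (3 arrays) show the starting level. B6.Sle1b mice, which carry the lupus-linked Sle1b interval, and Sle1b.BACSlamf6-H1 mice, named for an added bacterial artificial chromosome with Slamf6, have 3 arrays at 24 h and 3 at 4 h each. Bulk RNA was measured, so fewer cells of a type and less RNA per cell cannot be told apart.

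Anti-CD3 binds the CD3 chains of the T cell receptor and so stands in for antigen. In the first hours, T cells switch on kinase-driven and calcium-driven transcription factors such as the EGR, AP-1, NR4A and NF-kappaB proteins, and with them the first cytokines. Over the first day they leave quiescence, build ribosomes and mitochondria, turn to glycolysis and enter S phase as blasts. E2F transcription factors drive the genes of DNA replication, and the DREAM and MuvB complexes act through the CHR promoter element on the genes of mitosis.

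The 75th percentile of intensity was 39.5 to 46.8 on the 24 h arrays and 40.7 to 45.4 on the 4 h arrays. Background, taken from control probes without a target, was at log2 2.85 to 2.88 at 24 h and 2.92 to 3.09 at 4 h. The 18S ribosomal RNA control, a mean over its probe sets, read log2 8.16 to 8.23 at 24 h and 8.63 to 9.34 at 4 h. Its part in the results was not tested. Cd3d, a chain of the T cell receptor complex, read 11.35 and 11.25 at 24 h, against 11.38, 11.58 and 11.50 at 4 h, and Cd8a lay near background with 2.81 and 3.07 at 24 h, against 2.99, 3.22 and 2.89 at 4 h. The Cd4 probe set itself was dim in cells sorted as CD4+, with 5.48 and 5.60 at 24 h, against 5.60, 5.63 and 5.66 at 4 h. All values below are log2 intensities, each gene read through its brightest probe set. Differences are log2, 24 h minus 4 h, with the standard error (SE) of 1 limma fit over the 26 biological arrays. A gene was called where its Benjamini-Hochberg adjusted p over 17097 genes was under 0.05.

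The steady state mRNA level of 3186 genes (18.6%) differed between 24 h and 4 h. Of these, 2045 (12%) were higher at 24 h and 1141 (6.67%) were lower. These shares are the background for every list count below. At least 2-fold changes were seen for 952 genes (5.57%) that were higher and for 443 (2.59%) that were lower. The median difference over all genes was 0.0047, a value that the quantile normalization of the arrays holds near 0. The 24 h and 4 h arrays did not overlap for 7295 genes (42.7%), which is the background for any such statement below. A total of 5084 genes lay at background in both groups, 911 lay above it only at 24 h and 130 only at 4 h. The number called higher was 1192 without array 1 of the 24 h group, and the number called lower was 661 without array 2 of that group.

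**Figure D1:**
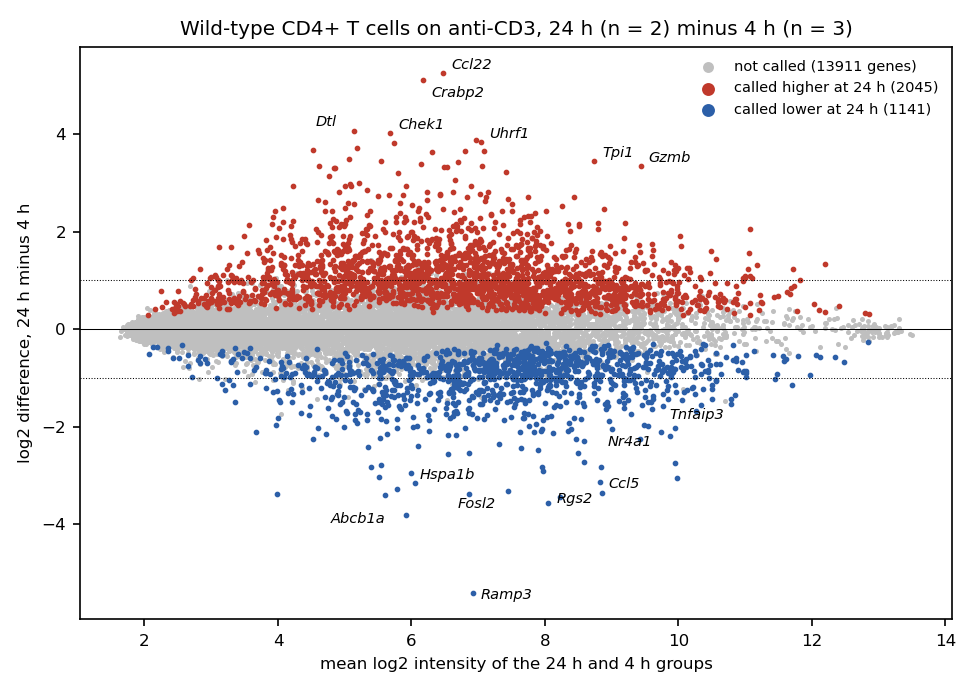
Log2 difference, 24 h (n = 2) minus 4 h (n = 3), against the mean log2 intensity of both groups, 1 point per gene. Red and blue points are called higher and lower at 24 h, dotted lines mark a 2-fold change, and Ccl22 (5.26) and Ramp3 (-5.42) lie farthest from 0.

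The 2 largest rises were genes near the floor of the array at 4 h. Ccl22, a chemokine that draws cells with the receptor CCR4, read 9.28 and 8.93 at 24 h, against 4.02, 3.80 and 3.72 at 4 h. Both 24 h arrays were bright and all 3 arrays at 4 h lay just above background, a 38.3-fold difference (log2 5.26 ± 0.20, adjusted p = 2.98e-13). Crabp2, which binds retinoic acid in the cytoplasm, read 8.87 and 8.58 at 24 h, against 3.60, 3.87 and 3.36 at 4 h and was 34.7-fold higher (log2 5.12 ± 0.21, adjusted p = 5.03e-13). As with Ccl22, no 4 h array came near the 24 h arrays.

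Several of the other large rises were genes of S phase and its checkpoint. Dtl, part of the ubiquitin ligase that destroys the licensing factor CDT1 in S phase, read 7.34 and 7.003 at 24 h, against 3.03, 3.19 and 3.06 at 4 h (log2 4.08 ± 0.34, adjusted p = 1.52e-08). Chek1, the checkpoint kinase that answers stalled replication forks, read 7.70 and 7.68 at 24 h, against 3.80, 3.74 and 3.46 at 4 h (log2 4.02 ± 0.25, adjusted p = 2.22e-10). The arrays of each group lay close together for both genes, far from those of the other group. Hells, a chromatin remodeller needed for DNA methylation, changed by 3.88, and Trip13, an ATPase of the spindle checkpoint, by 3.63.

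Enzymes made up much of the rest. Dctd, which makes dUMP for thymidylate synthesis, lay at background at 4 h and was at least 10.2-fold higher at 24 h (6.52 and 6.20 at 24 h, against 2.83, 2.44 and 2.79 at 4 h). Ak4, an adenylate kinase of mitochondria, rose by 3.50, and Bcat1, the cytosolic transaminase of branched-chain amino acids, by 3.46. Il12rb1, a receptor chain for IL-12 and IL-23, was another gene of T cell function among the 15 largest rises, with 7.27 and 6.83 at 24 h, against 3.81, 3.18 and 2.996 at 4 h (log2 3.72 ± 0.29, adjusted p = 7.41e-09). Nefh, a neurofilament subunit, rose by 3.65.

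The largest fall was that of Ramp3, which pairs with the calcitonin receptor-like receptor to bind adrenomedullin. It read 4.79 and 3.63 at 24 h, against 10.18, 9.48 and 9.21 at 4 h (log2 -5.42 ± 0.35, adjusted p = 3.63e-10), so that a bright gene at 4 h lay within a few units of background at 24 h. Unstimulated cells had 10.98, 10.22 and 10.70, the brightest of the 3 time points. Abcb1a, an efflux pump, read 4.04 and 3.99 at 24 h, against 8.25, 7.59 and 7.64 at 4 h (log2 -3.81 ± 0.25, adjusted p = 5.42e-10). Rgs2, which shortens the signal of G proteins, read 6.71 and 5.84 at 24 h, against 10.001, 9.72 and 9.77 at 4 h (log2 -3.56 ± 0.19, adjusted p = 3.35e-11). Both genes were named as largest falls, for which a lack of overlap between the groups was a condition.

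Further falls came from genes of varied function. Plagl1, a zinc finger factor that restrains growth, changed by -3.45. Ctla2b and Ctla2a, which resemble the propeptides of cathepsins, changed by -3.40 and -3.36. Trf, transferrin, fell to background at 24 h, at least 7.03-fold lower (2.06 and 2.53 at 24 h, against 6.59, 5.48 and 4.97 at 4 h). Dgat1, the last enzyme of triglyceride synthesis, changed by -3.39, and Qpct, glutaminyl cyclase, by -3.03. Igk-V21, an antibody light chain gene, and Jchain, the joining chain of plasma cells, were also among the 15 largest falls and are given with the plasma cell markers.

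The genes that copy DNA rose nearly as a block. Of 44 measured members of the DNA replication list, 40 were higher at 24 h, none was lower and 4 were not called, against 12% and 6.67% of all genes. Their median difference was 1.90, and the mean level of the list was 8.15 at 24 h and 6.28 at 4 h. Mcm5, a subunit of the helicase that opens DNA at origins, read 9.26 and 9.19 at 24 h, against 7.02, 6.98 and 6.39 at 4 h (log2 2.42 ± 0.29, adjusted p = 2.68e-06). Cdc6, which loads that helicase, read 7.71 and 7.57 at 24 h, against 4.06, 3.95 and 3.47 at 4 h (log2 3.81 ± 0.40, adjusted p = 5.10e-07). Both genes were high on both 24 h arrays and lower on every 4 h array, with array 3 of the 4 h group the lowest.

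Other members of the helicase and its loading machinery moved the same way. Mcm2 rose by 2.15, Mcm3 by 3.34, and Gins1 and Gins2, subunits of the complex that activates the helicase, by 3.33 and 3.39. Uhrf1, which brings the maintenance DNA methyltransferase to new DNA, read 8.91 and 9.003 at 24 h, against 5.71, 5.26 and 4.37 at 4 h (log2 3.84 ± 0.41, adjusted p = 4.93e-07). The 24 h arrays lay close together, whereas the 4 h arrays were spread out. Pcna, the sliding clamp of DNA polymerases, was bright at both times and changed least among the named members, with 12.09 and 11.96 at 24 h, against 11.20, 11.43 and 11.29 at 4 h (log2 0.71 ± 0.11, adjusted p = 5.98e-05). Leaving out any 1 array left 36 to 39 members called higher.

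E2F proteins bind promoters of many replication genes, and 2 such promoters are shown because they hold the motif searched for. They cover 250 bases before the RefSeq start site on GRCm38.p6, on the gene's strand, with matches in capitals. The letters searched for were TTTGGCGC, TTTCCCGC, TTTGCCGC and TTTCGCGC, on both strands. Mcm5 is at chr8:75109259-75109508 on the plus strand, with overlapping matches that begin 153 and 149 bases before the start. Cdc6 is at chr11:98907901-98908150 on the plus strand, with a match 138 bases before it.
Mcm5: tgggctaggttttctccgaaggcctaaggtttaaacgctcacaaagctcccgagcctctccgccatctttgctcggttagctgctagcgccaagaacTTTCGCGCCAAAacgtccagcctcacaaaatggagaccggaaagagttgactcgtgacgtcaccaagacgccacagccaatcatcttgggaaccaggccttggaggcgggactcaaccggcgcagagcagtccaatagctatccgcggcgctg
Cdc6: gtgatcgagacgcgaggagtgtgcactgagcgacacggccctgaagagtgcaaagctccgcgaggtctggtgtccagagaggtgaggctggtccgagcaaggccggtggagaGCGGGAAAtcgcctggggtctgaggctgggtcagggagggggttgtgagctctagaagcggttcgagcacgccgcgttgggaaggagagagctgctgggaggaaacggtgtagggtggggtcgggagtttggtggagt
Of 36 replication genes with a promoter in the table, 16 (44.4%) held a match on either strand in the window of 300 bases. The share was 2.6% of all 27025 genes with a promoter there, whether on the array or not. A match describes these letters and is no measured binding.

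Genes of mitosis followed at lower levels. Of 48 measured members, 34 were higher, 2 lower and 12 not called, with a median of 1.29 and a mean level of 6.28 at 24 h and 5.08 at 4 h. Cdk1, the kinase that starts mitosis, read 8.51 and 8.20 at 24 h, against 6.22, 6.499 and 5.72 at 4 h (log2 2.21 ± 0.33, adjusted p = 3.19e-05). Aurkb, the Aurora kinase of the chromosomal passenger complex, read 6.41 and 5.41 at 24 h, against 3.76, 3.73 and 2.99 at 4 h (log2 2.42 ± 0.34, adjusted p = 1.31e-05). The groups did not overlap for either gene, and the 24 h arrays of Aurkb lay farther apart than those of Cdk1.

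Kinetochore genes gave the largest rises in this list, with Cenpk at 2.78, Cenph at 2.48 and the checkpoint kinase Bub1 at 2.44. The condensin subunit Ncapg rose by 2.26. Plk1, which drives mitotic entry and exit, was dim at both times (5.09 and 4.94 at 24 h, against 4.12, 4.10 and 3.84 at 4 h) and its call was lost when single arrays were left out (adjusted p up to 0.235). Pttg1, securin, was lower (log2 -0.81 ± 0.13, adjusted p = 4.91e-05). So was Cenpa, the histone variant of centromeres (log2 -0.76 ± 0.24, adjusted p = 0.0244), although not in every fit with an array left out (adjusted p up to 0.291). Without array 1 of the 24 h group 21 members were called higher.

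The CHR element was searched for as TTTGAA or TTCGAA on both strands. The promoter of Cdk1 is shown because it holds the element at 2 places, in capitals, which begin 71 and 15 bases before the start. It is at chr10:69352913-69353162 on the minus strand.
Cdk1: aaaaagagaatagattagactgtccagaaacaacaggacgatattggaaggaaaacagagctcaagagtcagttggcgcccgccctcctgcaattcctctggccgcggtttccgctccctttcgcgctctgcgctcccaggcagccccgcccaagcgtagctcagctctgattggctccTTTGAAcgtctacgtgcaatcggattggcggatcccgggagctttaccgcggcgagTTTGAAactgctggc
The element was found in the promoters of 30 of 39 mitosis genes with an entry (76.9%), against 21.7% of all genes with an entry. It did not overlap the E2F letters in the sequence printed.

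Of 29 measured regulators of the G1 phase, 16 were higher, 3 lower and 10 not called (median 0.62), and 1 was lower without array 2 of the 24 h group or when each array was centred on its median. Cyclin E genes rose, Ccne2 with 6.71 and 6.30 at 24 h, against 3.40, 3.07 and 3.12 at 4 h (log2 3.31 ± 0.27, adjusted p = 1.58e-08) and Ccne1 by 2.16. Cdk4, the kinase partner of D cyclins, read 9.36 and 9.39 at 24 h, against 7.41, 7.54 and 7.15 at 4 h (log2 2.01 ± 0.18, adjusted p = 4.50e-08), already bright at 4 h and higher on both 24 h arrays. E2f8 and the E2F partner Tfdp1 rose by 2.13 and 2.16. Cdkn1b, the inhibitor p27, was lower (8.29 and 7.87 at 24 h, against 9.28, 8.87 and 9.19 at 4 h; log2 -1.03 ± 0.17, adjusted p = 1.23e-04), and Cdkn1a, the inhibitor p21, was not called (-0.51).

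Genes that supply the building blocks of DNA were higher too. Of 27 nucleotide synthesis genes, 20 were higher, 1 lower and 6 not called, with a median of 1.23. Rrm2, the limiting subunit of ribonucleotide reductase, read 8.59 and 8.66 at 24 h, against 5.64, 5.25 and 4.04 at 4 h (log2 3.65 ± 0.50, adjusted p = 1.24e-05), and its stable partner Rrm1 changed by 1.78. Cad, which carries the first steps of pyrimidine synthesis, read 8.41 and 8.41 at 24 h, against 5.79, 5.05 and 4.12 at 4 h (log2 3.43 ± 0.59, adjusted p = 1.75e-04). Both 24 h arrays stood above every 4 h array for both genes. Tyms, Tk1 and Dut, which make or guard thymidine nucleotides, rose by 2.42, 2.75 and 2.71. The member that fell was Rrm2b, the p53-linked form of the reductase subunit (log2 -0.63 ± 0.19, adjusted p = 0.0195; adjusted p up to 0.189 with an array left out).

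Among 12 histone and chromatin assembly genes, 5 were higher and 2 lower. The higher ones included the H3-H4 chaperone Asf1b (1.66), the histone methyltransferase Ezh2 (1.20) and Hells (3.88). The lower ones were the histone genes H1f2 (log2 -1.87 ± 0.21, adjusted p = 1.42e-06) and H2bc4 (log2 -1.75 ± 0.20, adjusted p = 1.60e-06).

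Most ribosome biogenesis genes were higher. Of 46 measured members, 39 were higher, 0 lower and 7 not called, with a median of 0.97. Gar1, a protein of the particles that modify ribosomal RNA, read 9.06 and 8.63 at 24 h, against 6.998, 7.25 and 6.49 at 4 h (log2 1.93 ± 0.28, adjusted p = 1.98e-05). Polr1a, the largest subunit of RNA polymerase I, rose by 1.65, and Utp20, which acts in the processing of small-subunit RNA, by 1.75. Fbl, a methyltransferase that also modifies ribosomal RNA, rose by 1.26. Ncl, nucleolin, did not pass the test (log2 0.04 ± 0.28, adjusted p = 0.974). It read 4.09 and 4.36 at 24 h, against 4.18, 4.24 and 4.15 at 4 h. Its probe set was dim beside the list's mean level of 8.42 at 24 h and 7.40 at 4 h, so a change in Ncl may be missed.

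Few genes of the finished cytosolic ribosome passed the test. Of 66 genes, 2 were higher, 1 lower and 63 not called, with a median of -0.01 and a mean level of 12.65 at 24 h and 12.64 at 4 h, near the top of the range. With single arrays left out, 1 to 2 were higher and 0 to 2 lower. Rpl3 read 12.87 and 12.76 at 24 h, against 12.73, 12.80 and 12.73 at 4 h, with a difference of 0.06. Rpl14, of the large subunit, was the exception in size (log2 0.83 ± 0.17, adjusted p = 7.88e-04).

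Proteins of the mitochondrial ribosome did move. Of 71 measured, 51 were higher and none lower, with a median of 0.83. Mrpl12 read 9.85 and 9.80 at 24 h, against 8.002, 8.47 and 7.87 at 4 h (log2 1.71 ± 0.20, adjusted p = 2.26e-06), and Mrpl1, Mrps27 and Mrps18b rose by 1.49, 1.51 and 1.41. All 4 genes were higher on each 24 h array than on any 4 h array.

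Most called genes of translation and protein quality control were higher too. Of 17 aminoacyl-tRNA synthetases, 11 were higher and none lower (median 0.66), led by the valine enzyme Vars (2.12) and the methionine enzyme Mars1 (1.71). Of 31 initiation factors, 12 were higher, 1 lower and 18 not called, and 7 were called higher without array 1 of the 24 h group. Eif4ebp1, which holds back cap-dependent initiation, rose most among them (7.77 and 7.79 at 24 h, against 6.28, 6.14 and 5.76 at 4 h; log2 1.72 ± 0.24, adjusted p = 1.69e-05). The 1 called lower, Eif3f (-0.99), depends on the probe set. In a fit of the 5 arrays alone another of its probe sets was the brightest and gave 0.24.

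Of 22 heat shock and chaperonin genes, 17 were higher, 1 lower and 4 not called (median 0.73). Stip1, which links the chaperones Hsp70 and Hsp90, rose by 1.497, and Hspe1 of the mitochondrial chaperonin by 1.33. Hspa1b, the stress-inducible Hsp70, went the other way with 4.53 and 4.51 at 24 h, against 8.06, 7.03 and 7.31 at 4 h (log2 -2.95 ± 0.32, adjusted p = 7.85e-07), and was low on both 24 h arrays. Unstimulated cells had 8.18, 7.51 and 8.08, which is near the 4 h values. Of 36 proteasome genes, 20 were higher and none lower (median 0.45), with Psmd3 at 1.38 and Psme3 at 1.23. Leaving out array 1 of the 24 h group left 9 calls, and leaving out its array 2 left 12.

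Glycolysis and glucose uptake rose at several steps. Of 26 measured genes, 19 were higher, 2 lower and 5 not called, with a median of 1.10, and none was lower without array 1 or array 2 of the 24 h group. Tpi1, triose phosphate isomerase, read 10.47 and 10.45 at 24 h, against 7.14, 7.13 and 6.75 at 4 h (log2 3.45 ± 0.24, adjusted p = 9.78e-10). Hk2, the inducible hexokinase, read 8.29 and 8.09 at 24 h, against 5.23, 5.12 and 4.26 at 4 h (log2 3.32 ± 0.30, adjusted p = 5.92e-08), and Slc2a1, the glucose transporter GLUT1, read 8.10 and 8.20 at 24 h, against 6.90, 6.77 and 6.56 at 4 h (log2 1.41 ± 0.32, adjusted p = 0.00227). Each 24 h array was above each 4 h array for all 3 genes. Aldoc, Pkm and Ldha rose by 2.12, 1.73 and 1.24. Bnip3, a mitophagy receptor switched on by low oxygen, rose by 2.08, whereas the oxygen-regulated factor Hif1a was lower (log2 -0.53 ± 0.16, adjusted p = 0.0172), a call that was lost when single arrays were left out (adjusted p up to 0.108).

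Some mitochondrial energy genes were higher, and most of those of the respiratory chain were not called. Of 20 genes of the tricarboxylic acid cycle, 10 were higher, 1 lower and 9 not called, and the 1 called lower was lost without array 2 of the 24 h group or array 3 of the 4 h group. Idh2, the mitochondrial isocitrate dehydrogenase, rose most (7.63 and 7.55 at 24 h, against 5.55, 5.79 and 5.28 at 4 h; log2 2.05 ± 0.26, adjusted p = 5.51e-06), followed by Dlat of pyruvate dehydrogenase (1.54). Of 74 respiratory chain and ATP synthase genes, 26 were higher, none lower and 48 not called, with a median of 0.40. Ndufab1, the acyl carrier protein of complex I, rose by 1.31 and Atp5g1, a ring subunit of ATP synthase, by 1.26. Leaving out array 1 of the 24 h group left 12 calls, and leaving out its array 2 left 17.

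Enzymes of serine, one-carbon and proline metabolism were among the rises. Of 21 genes, 7 were higher, 1 lower and 13 not called (median 0.33), with 0 to 2 lower when single arrays were left out. Psat1, the transaminase of serine synthesis, read 9.10 and 8.998 at 24 h, against 6.69, 6.89 and 6.40 at 4 h (log2 2.39 ± 0.20, adjusted p = 1.82e-08), and Shmt2, the mitochondrial enzyme that takes a carbon from serine, read 8.09 and 7.604 at 24 h, against 5.83, 5.77 and 5.20 at 4 h (log2 2.25 ± 0.32, adjusted p = 1.67e-05). Pycrl, of proline synthesis, rose by 2.21 and Mthfd1l by 1.71. Atf4, the factor that controls many of these genes under stress, differed by -0.08 and was not called. Of 14 amino acid transporters, 3 were higher and none lower, against 12% of all genes that were higher. None was called higher without array 1 of the 24 h group, and 0 were higher and 1 lower without array 3 of the 4 h group. Slc7a5, the large neutral amino acid carrier, was one of the 3 (1.51; adjusted p up to 0.0661 with an array left out), and its partner Slc3a2 was not called (-0.78).

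**Figure D2:**
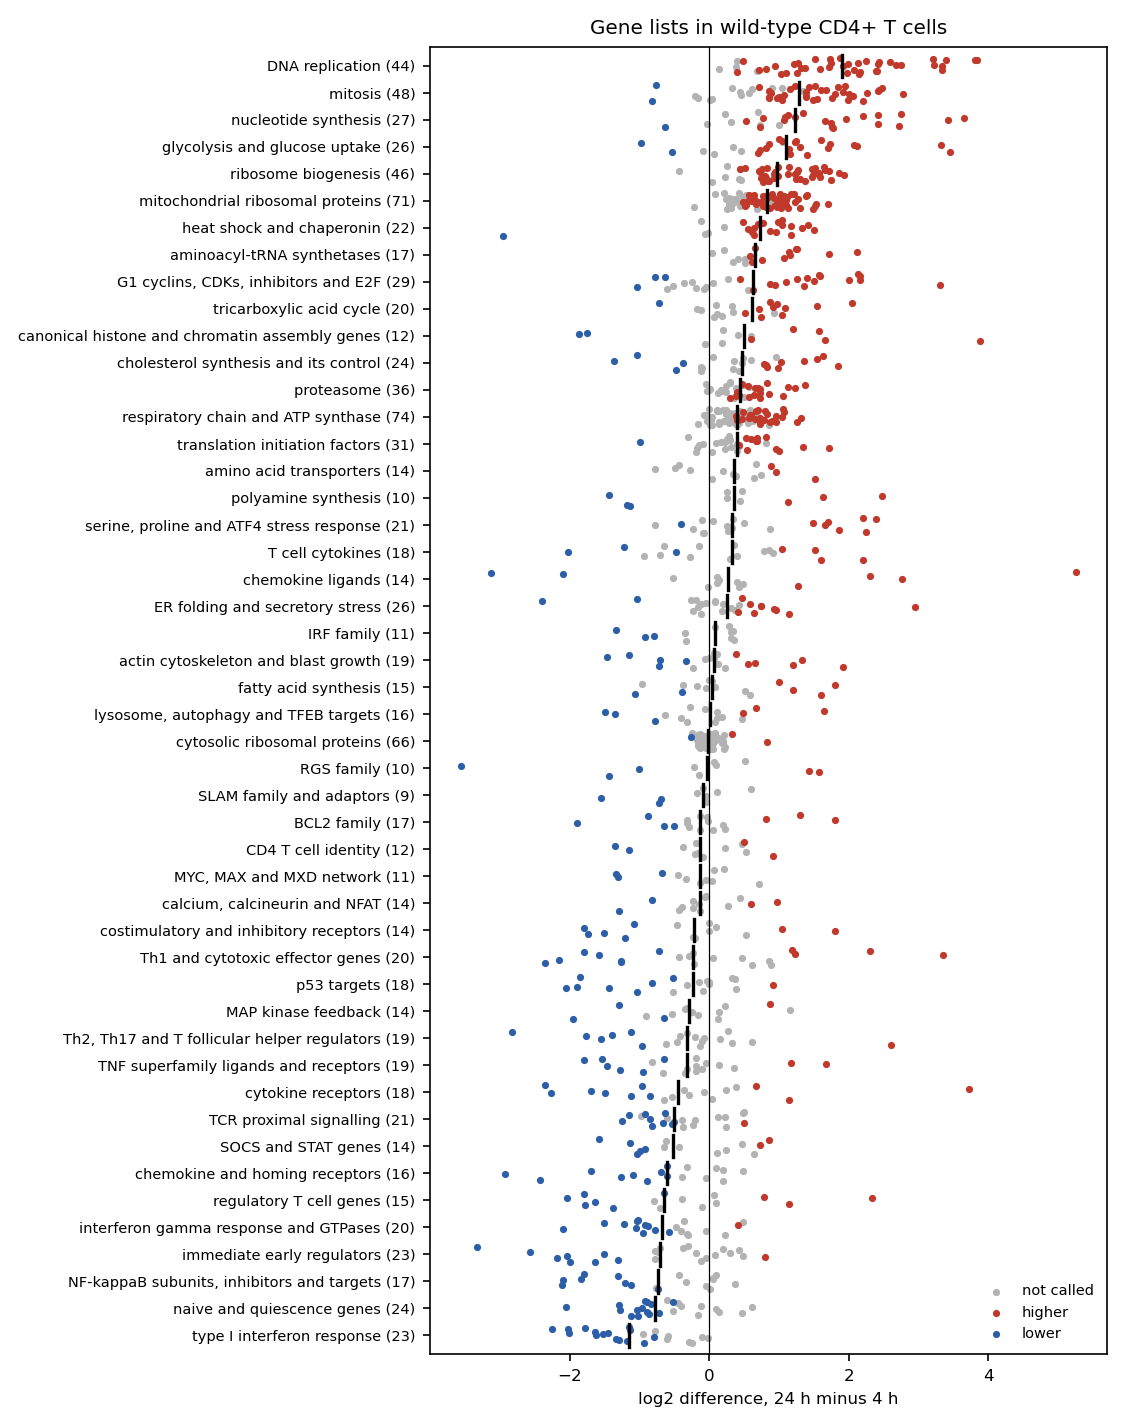
Log2 difference, 24 h minus 4 h, of each measured member of the 48 lists (1 point per gene, black bar at the list's median, number measured in brackets), ordered by the median. DNA replication is at the top with 1.90 and the type I interferon response at the bottom with -1.15.

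Most early regulators did not pass the test, and nearly all of those that did were lower at 24 h. Of 23 immediate early genes, 1 was higher, 8 lower and 14 not called, with a median of -0.71. Fosl2, an AP-1 subunit, read 6.20 and 5.36 at 24 h, against 9.77, 9.18 and 8.37 at 4 h (log2 -3.32 ± 0.41, adjusted p = 3.85e-06), and Fos read 5.72 and 4.83 at 24 h, against 8.18, 7.93 and 7.40 at 4 h (log2 -2.56 ± 0.31, adjusted p = 2.21e-06). In both, each 24 h array lay below each 4 h array. Nr4a1, the orphan receptor used as a readout of T cell receptor signal, read 9.32 and 8.25 at 24 h, against 11.29, 11.33 and 10.28 at 4 h (log2 -2.18 ± 0.43, adjusted p = 5.99e-04), and Nr4a3 changed by -1.99.

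Egr1, a zinc finger factor that follows ERK, was still bright at 24 h (9.34 and 8.23 at 24 h, against 10.90, 10.84 and 9.51 at 4 h; log2 -1.63 ± 0.40, adjusted p = 0.00521), above the unstimulated cells (7.55, 6.94 and 7.46). Its call was lost when single arrays were left out (adjusted p up to 0.177). Egr2, of the same family, read 8.45 and 7.34 at 24 h, against 8.95, 9.10 and 7.77 at 4 h. It was not called (log2 -0.71 ± 0.43, adjusted p = 0.341), and its arrays overlapped between the times. Without array 2 of the 24 h group, 5 members of the list were called lower and the median was -0.20.

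The NF-kappaB list was lower in part. Of 17 genes, 0 were higher, 8 lower and 9 not called (median -0.73). Tnfaip3, the deubiquitinase A20 that limits this pathway, read 8.64 and 8.72 at 24 h, against 11.05, 10.65 and 10.66 at 4 h (log2 -2.11 ± 0.15, adjusted p = 2.55e-09). Rel, the c-Rel subunit, read 6.42 and 5.70 at 24 h, against 7.97, 7.86 and 7.84 at 4 h (log2 -1.83 ± 0.24, adjusted p = 7.19e-06), and the nuclear inhibitors Nfkbiz and Nfkbid changed by -2.09 and -1.79. Tnfaip3 was tight within each group, with a wide gap between the groups. Traf1, called lower on its brightest probe set (-1.31), gave 0.07 on another one in the fit of the 5 arrays alone.

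Most signalling components downstream of the receptor were not called. The counts of these lists stand against 12% higher and 6.67% lower over all genes. Of 14 MAP kinase feedback genes, 1 was higher and 3 lower, with the phosphatases Dusp1 at -1.95 and Dusp4 at -1.29 (Dusp4 with an adjusted p up to 0.144 when an array was left out). Of 21 genes of proximal T cell receptor signalling, 1 was higher, 9 lower and 11 not called (median -0.50), and 5 were called lower when each array was centred on its median. The 1 higher call was lost without array 1 or without array 2 of the 24 h group. Ptpn22, a phosphatase that restrains Src-family kinases, read 9.02 and 8.71 at 24 h, against 10.37, 10.11 and 9.87 at 4 h (log2 -1.25 ± 0.24, adjusted p = 5.36e-04), and Cd247, the zeta chain, changed by -1.15. Cd3e and Zap70 were not called (-0.38 and 0.22). Of 14 calcium and NFAT genes, 2 were higher and 2 lower, and none was higher without array 1 of the 24 h group. Itpkb, a kinase of inositol trisphosphate, was lower (log2 -1.29 ± 0.26, adjusted p = 6.90e-04), and Nfatc1 was not called (-0.13).

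Cytokine transcripts split. Of 18 measured, 4 were higher, 3 lower and 11 not called. Without array 1 of the 24 h group 2 were higher and 1 lower, and without its array 2, 1 was lower. Il9 was at background at 4 h and at least 4.47-fold higher at 24 h (5.35 and 4.999 at 24 h, against 2.87, 3.09 and 2.95 at 4 h; adjusted p = 2.67e-04). Lta, lymphotoxin alpha, read 8.49 and 8.58 at 24 h, against 6.77, 7.25 and 7.03 at 4 h (log2 1.52 ± 0.24, adjusted p = 5.16e-05). Il2, the growth factor of T cells, read 8.49 and 7.61 at 24 h, against 6.60, 6.97 and 5.76 at 4 h (log2 1.61 ± 0.41, adjusted p = 0.00584). Both 24 h arrays were above the 4 h arrays for all 3 genes, but the Il2 arrays were spread out at both times and its call was lost with an array left out (adjusted p up to 0.162).

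Il4, the main Th2 cytokine, was lower at 24 h (9.22 and 8.66 at 24 h, against 10.97, 11.35 and 10.55 at 4 h; log2 -2.02 ± 0.30, adjusted p = 3.35e-05), and unstimulated cells had 6.94, 7.30 and 6.87. The 24 h level therefore lay between the unstimulated and the 4 h levels. Il13 was higher (log2 1.04 ± 0.30, adjusted p = 0.0154), a call lost with an array left out (adjusted p up to 0.204). Ifng and Tnf were not called, with 9.72 and 9.24 at 24 h, against 8.82, 8.56 and 8.48 at 4 h for Ifng (log2 0.86 ± 0.34, adjusted p = 0.0866) and 6.89 and 6.36 at 24 h, against 7.76, 8.03 and 6.89 at 4 h for Tnf (log2 -0.93 ± 0.36, adjusted p = 0.0786).

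Of 14 chemokine ligands, 4 were higher, 2 lower and 8 not called. Beside Ccl22, Ccl17, the other ligand of CCR4, read 7.598 and 7.22 at 24 h, against 5.17, 5.10 and 5.03 at 4 h (log2 2.31 ± 0.37, adjusted p = 8.26e-05), and Ccl1, the ligand of CCR8, read 8.85 and 7.96 at 24 h, against 5.74, 5.96 and 5.23 at 4 h (log2 2.77 ± 0.33, adjusted p = 2.40e-06). Ccl5, made by effector and memory cells, was lower (7.07 and 7.46 at 24 h, against 10.27, 9.94 and 10.96 at 4 h; log2 -3.13 ± 0.41, adjusted p = 6.89e-06), and so was Cxcl10, an interferon-induced ligand (log2 -2.09 ± 0.51, adjusted p = 0.00485).

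Ccl22 and Ccl17 are also products of dendritic cells, and 7 dendritic cell markers were measured. Fscn1, an actin-bundling protein of mature dendritic cells, was higher (7.67 and 7.93 at 24 h, against 6.22, 4.93 and 4.01 at 4 h; log2 2.75 ± 0.88, adjusted p = 0.0308), with the call lost when single arrays were left out (adjusted p up to 0.16). Cd83 and Cd86 were lower (-0.96 and -1.15), but Cd86 was not called without array 2 of the 24 h group (adjusted p = 0.118). Itgax read 3.47 and 3.89 at 24 h, against 3.86, 3.92 and 4.15 at 4 h and Flt3 3.41 and 3.49 at 24 h, against 3.61, 3.72 and 3.56 at 4 h, while Xcr1 lay at background in both groups. The summed linear intensity of the 7 markers was 607 to 621 at 24 h, against 709 to 879 at 4 h. Itgax, Flt3 and Xcr1 were dim and add little to this sum. The part of such cells in the chemokine values was not tested.

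No receptor for chemokines or homing signals was called higher. Of 16 measured, 9 were lower and 7 not called (median -0.60). Cxcr6, the receptor of CXCL16, read 6.92 and 6.09 at 24 h, against 9.38, 9.43 and 9.46 at 4 h (log2 -2.92 ± 0.22, adjusted p = 5.70e-09), and Ccr2, a receptor of memory and inflammatory cells, read 4.26 and 4.01 at 24 h, against 6.62, 6.29 and 6.76 at 4 h (log2 -2.42 ± 0.27, adjusted p = 8.58e-07). Cd69, which holds S1PR1 inside the cell, was lower than at 4 h (9.79 and 9.03 at 24 h, against 10.98, 11.26 and 11.06 at 4 h; log2 -1.69 ± 0.26, adjusted p = 4.11e-05). S1pr1, which guides exit from lymphoid organs, was lower as well (7.47 and 7.33 at 24 h, against 8.40, 8.23 and 8.26 at 4 h; log2 -0.89 ± 0.20, adjusted p = 0.00201). For each of these genes the arrays at the 2 times did not overlap.

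Of 18 cytokine receptor genes, 3 were higher, 7 lower and 8 not called, and 1 was higher without array 2 of the 24 h group. Il2ra, the high-affinity chain of the IL-2 receptor, read 8.20 and 8.40 at 24 h, against 7.16, 7.24 and 7.05 at 4 h (log2 1.15 ± 0.29, adjusted p = 0.00592), against 4.91, 4.26 and 5.01 in unstimulated cells. Its call was lost when an array was left out (adjusted p up to 0.0707). Il18r1 and Ifngr1, chains of the IL-18 and interferon gamma receptors, changed by -2.35 and -2.26, and Il6st, the shared chain of the IL-6 family, by -1.50. Of 14 SOCS and STAT genes, 2 were higher and 5 lower, or 2 lower when each array was centred on its median. With arrays left out 0 to 2 were higher and 1 to 5 lower, and the fewest were called without array 1 or without array 2 of the 24 h group. Stat4, which passes on the IL-12 signal, read 9.01 and 8.97 at 24 h, against 10.52, 10.44 and 10.72 at 4 h (log2 -1.57 ± 0.12, adjusted p = 5.70e-09).

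Inhibitory and costimulatory receptors did not move together. Of 14 measured, 2 were higher, 5 lower and 7 not called. Lag3, which binds MHC class II, read 5.51 and 5.44 at 24 h, against 3.49, 3.74 and 3.80 at 4 h (log2 1.80 ± 0.29, adjusted p = 7.48e-05), and Cd200 rose by 1.05. Ctla4 read 7.17 and 7.23 at 24 h, against 9.17, 8.82 and 8.97 at 4 h (log2 -1.79 ± 0.16, adjusted p = 5.05e-08) and Icos read 8.42 and 8.43 at 24 h, against 10.26, 10.10 and 10.12 at 4 h (log2 -1.73 ± 0.12, adjusted p = 6.40e-10), both tight within each time. Cd28 was not called (-0.20). Pdcd1, PD-1, was called lower (log2 -1.07 ± 0.33, adjusted p = 0.0234), and its adjusted p reached 0.638 with an array left out.

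Of 19 TNF superfamily genes, 2 were higher, 6 lower and 11 not called, and 1 was higher without array 1 of the 24 h group or array 3 of the 4 h group. Cd70, the ligand of CD27, lay at background at 4 h and was at least 2.18-fold higher at 24 h (4.29 and 3.99 at 24 h, against 2.62, 2.37 and 2.40 at 4 h; adjusted p = 6.87e-06). Fasl, the death ligand, read 6.98 and 6.21 at 24 h, against 8.37, 8.52 and 8.28 at 4 h (log2 -1.79 ± 0.29, adjusted p = 6.80e-05), and its receptor Fas changed by -1.28. The members named first in that list, Tnfrsf4 (OX40), Tnfrsf9 (4-1BB) and Cd40lg, were not called (-0.35, -0.04 and -0.32).

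Many genes of naive and resting cells were lower. Of 24 measured, 0 were higher, 14 lower and 10 not called, with a median of -0.78. Btg2, which slows growth and shortens messages, read 8.17 and 7.79 at 24 h, against 10.23, 10.06 and 9.78 at 4 h (log2 -2.05 ± 0.23, adjusted p = 1.27e-06), and its relative Tob1 changed by -1.29. Txnip, which restrains glucose uptake, read 8.46 and 8.45 at 24 h, against 9.64, 9.47 and 9.63 at 4 h (log2 -1.12 ± 0.21, adjusted p = 3.92e-04). Foxo1 and Lef1 were not called (-0.12 and 0.14). Of the list, 9 members were called lower without array 2 of the 24 h group. In the MYC network of 11 genes, Mxd4 (-1.33), Mxd1 (-1.30) and Mxi1 (-0.68), which compete with MYC for MAX, were lower. Only 1 member of the list was called lower without array 1 of the 24 h group, and the adjusted p reached 0.0668 for Mxd1 and 0.0774 for Mxi1 with an array left out. Myc itself was not called (10.14 and 10.11 at 24 h, against 9.77, 9.75 and 8.72 at 4 h; log2 0.71 ± 0.28, adjusted p = 0.0881). Myc was already above the unstimulated arrays (7.57, 6.73 and 7.03) at 4 h.

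The type I interferon response was the list with the lowest median, -1.15. Of 23 measured, 0 were higher, 15 lower and 8 not called. Irf7, which amplifies this response, read 6.27 and 6.37 at 24 h, against 7.77, 7.48 and 7.72 at 4 h (log2 -1.34 ± 0.25, adjusted p = 3.82e-04), and Oas2, a sensor of double-stranded RNA, read 4.88 and 5.16 at 24 h, against 6.74, 6.36 and 6.85 at 4 h (log2 -1.63 ± 0.31, adjusted p = 5.04e-04). Ifit1, an antiviral protein that binds RNA caps, read 7.31 and 7.37 at 24 h, against 9.04, 9.07 and 10.69 at 4 h (log2 -2.26 ± 0.63, adjusted p = 0.013). Array 3 of the 4 h group was the highest for Ifit1, well above the other 4 h arrays.

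The count for that list depended on single arrays. Without array 3 of the 4 h group, 9 members were called lower, the median was -0.93 and Ifit1 was not called (-1.71, adjusted p = 0.0863). Without array 1 or array 2 of the 24 h group, 9 and 8 members were called. The list's mean level was 6.38 at 24 h and 7.5 at 4 h, and 6.06 in unstimulated cells.

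Of 20 genes of the interferon gamma response, 1 was higher, 11 lower and 8 not called (median -0.67). Gbp7, a guanylate-binding protein, read 9.87 and 9.92 at 24 h, against 11.01, 10.99 and 11.34 at 4 h (log2 -1.22 ± 0.24, adjusted p = 6.66e-04), and the transcription factor Irf1 read 10.14 and 10.21 at 24 h, against 11.04, 11.04 and 11.21 at 4 h (log2 -0.92 ± 0.20, adjusted p = 0.00202). Both were lower on each 24 h array. Igtp, an immunity-related GTPase, was not called (-0.41). Without array 2 of the 24 h group, 6 members were called lower and 0 higher. Of 11 IRF family genes, 3 were lower (Irf7, Irf1 and Irf9) and Irf4 and Irf8 were not called (-0.33 and 0.34).

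Effector genes diverged. Of 20 Th1 and cytotoxic genes, 4 were higher, 7 lower and 9 not called. Gzmb, a granzyme that starts apoptosis in target cells, read 10.98 and 11.22 at 24 h, against 7.55, 7.82 and 7.90 at 4 h (log2 3.34 ± 0.41, adjusted p = 3.49e-06), and Eomes, a T-box factor, read 8.67 and 9.005 at 24 h, against 6.89, 6.28 and 6.44 at 4 h (log2 2.30 ± 0.31, adjusted p = 8.06e-06). The 24 h arrays stood above all 4 h arrays in both. Gzmk, another granzyme, was lower (3.49 and 3.82 at 24 h, against 6.72, 4.99 and 5.69 at 4 h; log2 -2.15 ± 0.38, adjusted p = 2.11e-04). Tbx21, the Th1 factor T-bet, was not called (log2 0.89 ± 0.50, adjusted p = 0.29), nor was the pore protein Prf1 (0.47).

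Gzmb, Eomes and Gzmk are also expressed by CD8 T cells and NK cells. Cd8b1 read 5.10 and 4.69 at 24 h, against 5.27, 5.50 and 5.39 at 4 h and was not called (log2 -0.49 ± 0.23, adjusted p = 0.171), and the NK receptors Ncr1 and Klrb1c read 2.93 and 3.38 at 24 h, against 2.96, 2.90 and 3.09 at 4 h, and 2.998 and 3.31 at 24 h, against 3.24, 3.43 and 3.80 at 4 h, with neither called. Of the 6 CD8 markers 2 were higher (Eomes and Crtam, 2.21) and 2 lower (1 lower without array 1 or without array 2 of the 24 h group), and their summed intensity was 787 to 844 at 24 h, against 349 to 421 at 4 h. Of 8 NK markers 2 were higher and 1 lower (none lower without array 1 or without array 2 of the 24 h group), with sums of 896 to 1133 at 24 h, against 460 to 722 at 4 h. Eomes and Gzmk are themselves in the CD8 list, and Eomes is in the NK list. The sums therefore hold some of the genes they are set beside. The part of such cells in the effector values was not tested.

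Regulators of the other helper lineages were mostly lower or not called. Of 19 measured, 1 was higher, 6 lower and 12 not called, and 3 were lower without array 2 of the 24 h group. Batf3, an AP-1 family factor, read 5.79 and 6.21 at 24 h, against 3.38, 3.38 and 3.42 at 4 h (log2 2.61 ± 0.25, adjusted p = 1.17e-07). Rora, a nuclear receptor of Th17 and innate-like cells, read 4.30 and 3.65 at 24 h, against 7.34, 6.58 and 6.496 at 4 h (log2 -2.83 ± 0.30, adjusted p = 5.90e-07). Bcl6, the factor of follicular helper cells, read 5.69 and 5.05 at 24 h, against 7.90, 6.99 and 6.52 at 4 h (log2 -1.77 ± 0.39, adjusted p = 0.00201), with an adjusted p of 0.0571 when an array was left out. Gata3, the Th2 factor, was not called (-0.13).

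Of 15 regulatory T cell genes, 3 were higher, 6 lower and 6 not called. Ikzf2, Helios, read 7.02 and 6.85 at 24 h, against 9.21, 8.74 and 8.97 at 4 h (log2 -2.04 ± 0.18, adjusted p = 5.63e-08), and Foxp3, the defining factor of these cells, read 4.85 and 5.16 at 24 h, against 6.96, 6.18 and 5.99 at 4 h (log2 -1.37 ± 0.42, adjusted p = 0.024; adjusted p up to 0.19 with an array left out). Ebi3, a subunit of IL-27 and IL-35, was higher (6.70 and 6.30 at 24 h, against 4.50, 4.43 and 3.56 at 4 h; log2 2.34 ± 0.32, adjusted p = 1.04e-05). The members thus moved in both directions, with Foxp3 and Ikzf2 low on each 24 h array.

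Survival genes changed by member, in lists to be read beside 12% higher and 6.67% lower over all genes. Of 17 BCL2 family genes, 3 were higher and 4 lower, or 2 lower without array 1 of the 24 h group. Bcl2l1, which encodes the survival protein BCL-xL, read 8.15 and 8.09 at 24 h, against 6.34, 6.31 and 6.32 at 4 h (log2 1.80 ± 0.16, adjusted p = 6.17e-08). Pmaip1, the death-promoting NOXA, read 4.98 and 4.38 at 24 h, against 6.85, 6.14 and 6.72 at 4 h (log2 -1.89 ± 0.28, adjusted p = 2.93e-05). Bid, another death-promoting member, rose by 1.30, and Bcl2 was not called (-0.13). Of 18 p53 targets, 1 was higher and 7 lower, with Gadd45a at -1.85 and Trp53inp1 at -1.43.

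Some transcripts of other cells were present and differed between the times. Jchain, the joining chain of secreted antibody, read 7.73 and 9.19 at 24 h, against 11.82, 10.74 and 11.97 at 4 h (log2 -3.05 ± 0.42, adjusted p = 1.28e-05), and Igk-V21 read 3.87 and 5.09 at 24 h, against 7.95, 6.64 and 8.34 at 4 h (log2 -3.17 ± 0.64, adjusted p = 9.02e-04). Array 1 was the lower of the 24 h arrays in both. Of the 5 plasma cell markers, Jchain was called and the other 4 were not, and their summed intensity was 2419 to 2980 at 24 h, against 4107 to 6251 at 4 h. Apoe, a macrophage product, read 4.63 and 4.20 at 24 h, against 7.04, 6.92 and 5.97 at 4 h (log2 -2.23 ± 0.31, adjusted p = 1.16e-05), was the only 1 of 12 monocyte and macrophage markers called, and 4 of these lay at background at both times. The 12 summed to 114 to 124 at 24 h, against 158 to 229 at 4 h. Jchain makes up most of the difference in the plasma cell sum, and Apoe most of that in the monocyte and macrophage sum.

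B cell markers were present at both times. Of 14, 0 were higher and 1 lower (Cd79b, log2 -0.99 ± 0.27, adjusted p = 0.00968, with an adjusted p of 0.19 when an array was left out), and their sum was 1835 to 2386 at 24 h, against 1719 to 2821 at 4 h. Ms4a1, CD20, read 8.08 and 7.49 at 24 h, against 7.63, 7.36 and 7.39 at 4 h, with overlapping arrays. None of 10 neutrophil or 4 erythroid markers was called. Hba-a1, a haemoglobin chain, read 10.77 and 9.16 at 24 h, against 11.82, 11.54 and 10.96 at 4 h (log2 -1.48 ± 0.62, adjusted p = 0.114), lower on both 24 h arrays. Erythroid sums were 595 to 1776 at 24 h, against 2030 to 3658 at 4 h, and neutrophil sums were 92.6 to 108 at 24 h, against 94.2 to 194 at 4 h. The erythroid sum is nearly all Hba-a1, and 2 of the 4 markers lay at background at both times. The part of these cells in the other results was not tested.

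**Figure D3:**
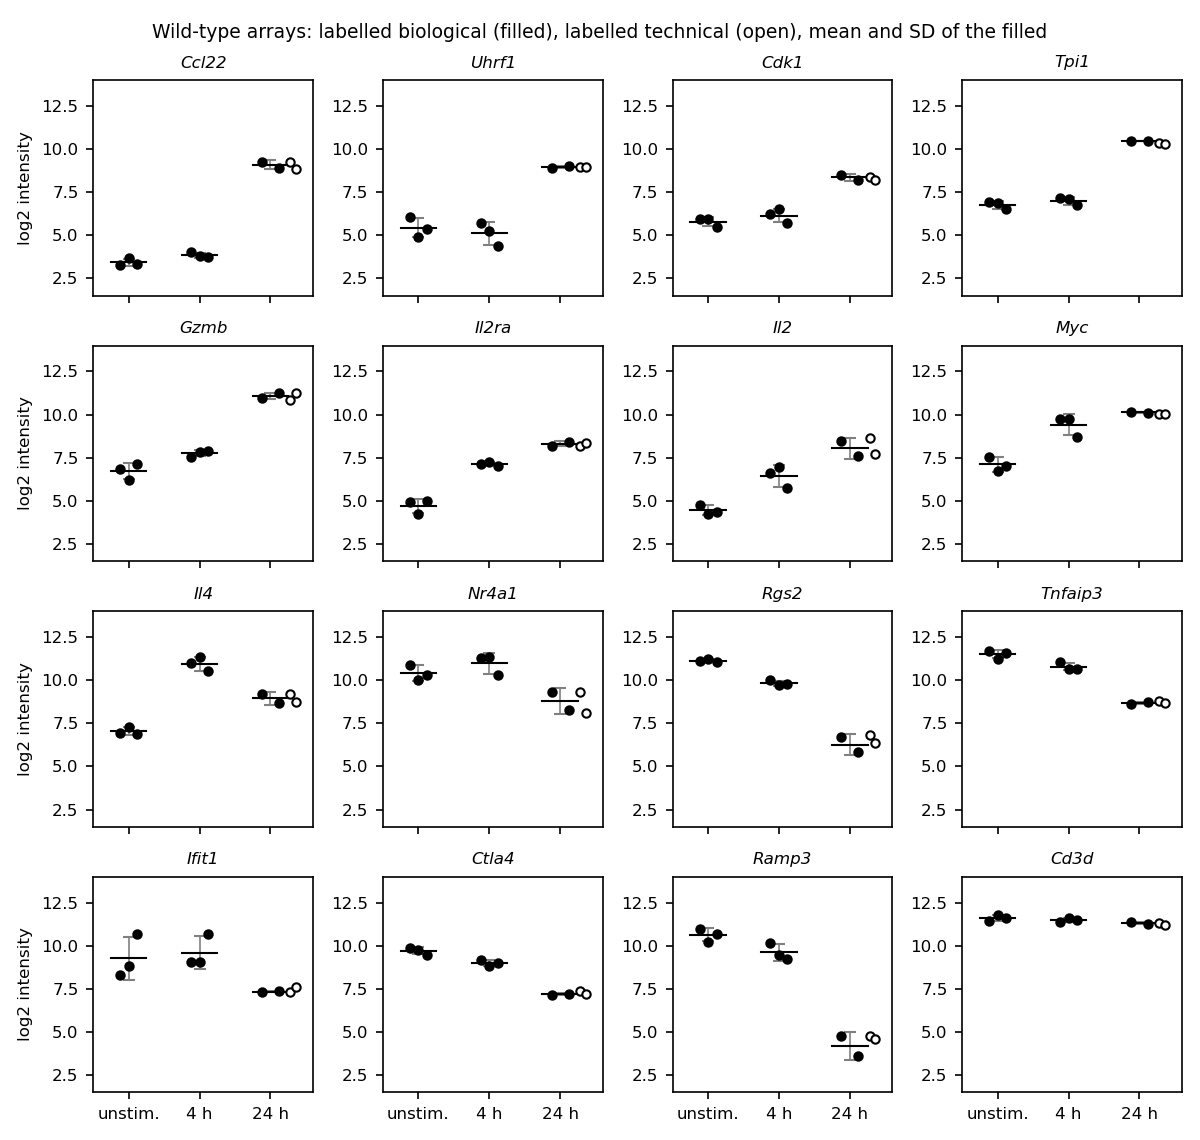
Log2 intensity on every wild-type array for 16 genes, unstimulated, at 4 h and at 24 h, with filled points for arrays labelled biological (bar, mean; whiskers, SD) and open points for the 2 labelled technical. Ccl22, Uhrf1, Cdk1, Tpi1 and Gzmb are high at 24 h alone, Myc and Il4 lie above the unstimulated arrays at 4 h, and Ramp3, Rgs2, Tnfaip3 and Ctla4 are lowest at 24 h.

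The unstimulated arrays place these differences in time, as a description without a test. Mean levels of the DNA replication list were 6.29, 6.28 and 8.15 in unstimulated, 4 h and 24 h cells, so the list's mean at 4 h lay next to that of unstimulated cells. Those of ribosome biogenesis were 7.10, 7.40 and 8.42, and those of the proteasome 8.86, 9.25 and 9.75. The interferon gamma response list stood at 8.12, 9.76 and 9.13, highest at 4 h. Naive and quiescence genes stood at 8.79, 8.42 and 7.78, lower at each step. Immediate early regulators stood at 6.61, 6.77 and 5.98, and the NF-kappaB list at 8.08, 8.28 and 7.51. For both, the unstimulated mean lay near the 4 h mean and the 24 h mean was the lowest. MAP kinase feedback genes stood at 6.26, 6.09 and 5.81, lower at each step.

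The arrays labelled technical lay close to the biological arrays of the 24 h group. Technical array 3 lay closest to 24 h array 1 (SD of the log2 difference 0.134 over 5157 genes with a mean above 6) and technical array 4 to array 2 (0.182), against 0.220 between the biological pair and 0.278 to 0.386 between the 4 h arrays. The labels do not say which RNA they repeat. All 952 genes with a rise of at least 2-fold were also higher on the technical arrays, and 951 had both of them outside the range of the 4 h arrays. Among the 443 genes with such a fall these numbers were 443 and 439. All these genes were chosen against the same 4 h arrays, so this check is not independent of the choice. For Ccl22 the technical arrays read 9.27 and 8.82, and for Ramp3 4.77 and 4.57.

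The other strains share no array with the wild-type comparison. Between 24 h and 4 h, 4142 genes (24.2%) were called in B6.Sle1b and 4232 (24.8%) in Sle1b.BACSlamf6-H1. All 952 genes that rose at least 2-fold in wild type had a positive difference in each of these strains, and 905 (95.1%) were called higher in B6.Sle1b and 948 (99.6%) in Sle1b.BACSlamf6-H1. Of the 443 that fell, 438 (98.9%) were called lower in B6.Sle1b and 414 (93.5%) in Sle1b.BACSlamf6-H1, and none was called in the opposite direction. The median difference of the 952 was 1.39 in wild type, 1.31 in B6.Sle1b and 1.58 in Sle1b.BACSlamf6-H1, and that of the 443 was -1.35, -1.59 and -1.30.

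**Figure D4:**
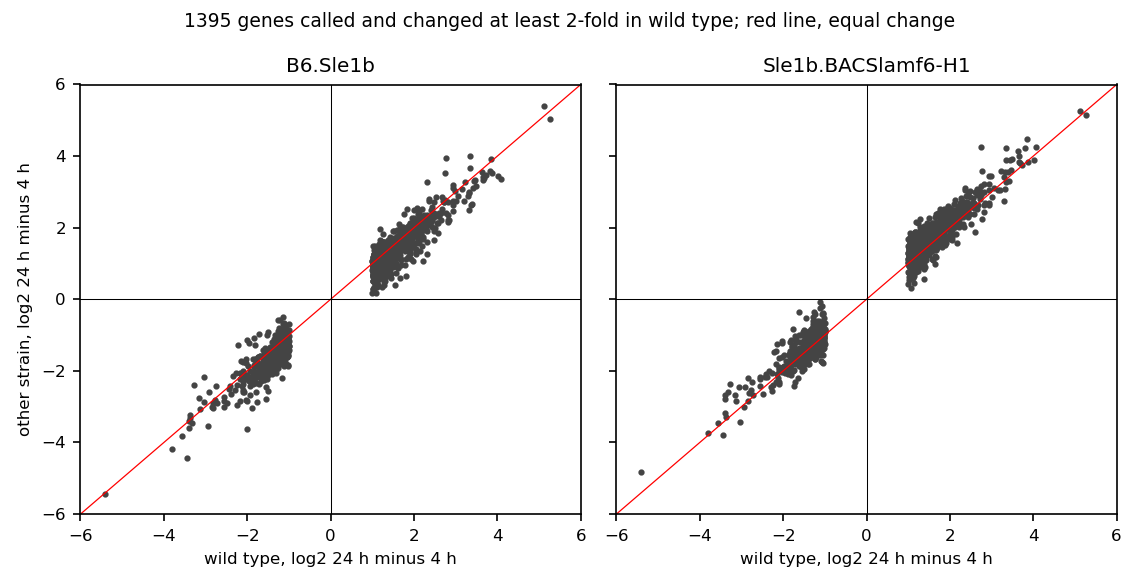
Log2 difference, 24 h minus 4 h, in wild type (horizontal) and in B6.Sle1b or Sle1b.BACSlamf6-H1 (vertical) for the 1395 genes called and changed at least 2-fold in wild type. All points lie at the lower left or upper right, and the red line marks equal change.

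The test of the difference itself found no gene whose change in wild type differed from that in another strain. With limma, 0 genes were called against B6.Sle1b (0%) and 0 against Sle1b.BACSlamf6-H1 (0%), and the smallest adjusted p was 0.9994 and 0.9997. An unadjusted p under 0.05 was found for 534 and 413 of 17097 genes. Both are smaller than the share of 0.05 to be met with if no gene differed. The differences between strains ran from -1.66 to 1.61 log2 units against B6.Sle1b and from -1.64 to 1.15 against Sle1b.BACSlamf6-H1, while the median SE was 0.249. With the replicate number as a block, 1 gene was called against B6.Sle1b (Lyz2, -1.47, adjusted p = 0.0141). With the technical arrays in place of the biological ones, 22 and 4 genes were called.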

How the data were processed

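The 28 samples of CD4+ T cell RNA were each run on 1 Affymetrix HT MG-430 PM array. In the deposited table, 45141 probe sets have linear intensity values that, per the submitters' processing notes, came from RMA, a method that quantile normalizes the arrays, so a shift common to all genes is removed. No version of it is given in the sources used here. Here log2 was taken, with no offset and no filter.

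By the platform annotation, 28898 probe sets have 1 gene symbol, 551 have several and 15692 have none. RefSeq (GRCm38.p6) held 28689 of those with 1. Each of 17097 genes was read through its brightest probe set. Of 1665 called genes with several probe sets, 8 had another one called in the opposite direction. Background was the 95th percentile of 23 non-specific control probe sets per array. Where a group lay at or under it, the fold is a lower bound over that floor.

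Groups came from the labels' strain and time. One limma 3.58.1 fit (R 4.3.3) held the 26 biological arrays with a mean for each of 9 groups, followed by eBayes and Benjamini-Hochberg adjustment. Tests are two-sided. The fit was tested on simulated data. Whether the arrays of a group came from separate mice is not in the labels, so p-values cover the spread between these arrays, which may be technical. Precision is limited by their number. Replicate numbers were not taken as pairs. With 2 pairs, deviations of same-numbered wild-type arrays at 24 h and 4 h correlated at 0.0043 and -0.166. Those of B6.Sle1b correlated at 0.144, 0.158 and 0.367, and those of Sle1b.BACSlamf6-H1 at 0.0808, 0.150 and 0.257. No 2 arrays held identical values.

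The text names the 15 largest rises and falls among called genes without overlap, the first 4 members of each of 56 gene lists with up to 5 called members per direction, and any marker of another cell type. It leaves some of them out. The comparison, the lists and their members were chosen with earlier results of these data known. Lists are described by counts and medians. Promoter sequences are RefSeq's, covering 250 bases before to 50 after a start site. Of the replication genes 36 of 44 had an entry, of the mitosis genes 39 of 48.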

Additional observations from a re-analysis of the deposited data

How the results depend on the processing

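The 952 genes that rose at least 2-fold had the same sign under all 20 alternatives, and 731 (76.8%) were called in every one. Of the 443 that fell, 442 kept their sign and 336 (75.8%) were called in every one. Leaving out 1 array at a time gave 1192 to 1864 genes called higher, 661 to 1057 called lower, 700 to 1070 higher by at least 2-fold and 343 to 491 lower by at least 2-fold. The lowest counts came without array 1 of the 24 h group (1192 and 700) and without array 2 of that group (661 and 343). The lone 24 h array is then assumed to vary like the other groups. With array brightness as a covariate, 2045 genes were called lower. The share of called genes that were higher was 64.2%, and it ranged from 57.0% to 72.6%. No scaling moved the median of all genes by as much as 0.1. With 1 value per probe set averaged, 745 genes rose and 356 fell at least 2-fold, and with 16 added before log2 644 and 317 did. Among named genes, Eif3f (0.2409) and Traf1 (0.07236) changed sign in the fit of the 5 arrays alone, where another of their probe sets was the brightest.

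With the replicate number as a block, 2145 genes were called higher and 1170 lower, and 1 gene was called for a change that differed between wild type and B6.Sle1b (Lyz2, -1.47, adjusted p = 0.0141). Only 2 numbers are shared by the wild-type groups, so the block was not taken as pairing. The technical arrays in place of the biological ones called 22 genes against B6.Sle1b and 4 against Sle1b.BACSlamf6-H1, and the cause was not tested. Leaving out an array gave 0 to 1 genes against Sle1b.BACSlamf6-H1 (Snx20 without array 1 of the 24 h group) and 0 against B6.Sle1b. With the mean of a gene's probe sets, many named genes with several probe sets had smaller differences. With 2 and 3 arrays, genes near background have little room to show a fall.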

Other observations

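Lipid and polyamine enzymes changed step by step. Of 24 genes of cholesterol synthesis and its control, 9 were higher, 4 lower (2 without array 2 of the 24 h group, or array 2 or 3 of the 4 h group) and 11 not called (median 0.48). Mvd, of the mevalonate pathway, read 5.62 and 4.96 at 24 h, against 3.53, 3.37 and 3.42 at 4 h (log2 1.85 ± 0.20, adjusted p = 5.96e-07), and Idi1 and Sqle rose by 1.64 and 1.36. Abcg1, which exports cholesterol, and Mylip, which removes the LDL receptor, were lower (-1.03 and -1.36). Of 15 fatty acid synthesis genes, 4 were higher, 2 lower and 9 not called, with a median of 0.04. Acaca and Fasn, the enzymes that commit carbon to fatty acids and build them, rose by 1.81 and 1.61. The 2 called lower were Elovl5 and Acsl4, and the call of Acsl4 was lost with an array left out. In polyamine synthesis Srm, spermidine synthase, was higher (10.18 and 10.05 at 24 h, against 7.94, 8.18 and 6.81 at 4 h; log2 2.47 ± 0.37, adjusted p = 3.70e-05) and Odc1, the first enzyme, was lower (7.37 and 7.35 at 24 h, against 8.69, 8.54 and 8.27 at 4 h; log2 -1.14 ± 0.15, adjusted p = 7.08e-06).

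Secretory and structural genes were mixed. Over all genes 12% were higher and 6.67% lower. Of 26 genes of ER folding and secretory stress, 10 were higher and 2 lower. Sdf2l1, a co-factor of ER chaperones, read 8.47 and 8.24 at 24 h, against 5.52, 5.37 and 5.35 at 4 h (log2 2.94 ± 0.23, adjusted p = 5.62e-09), and Ern1, the sensor IRE1, read 5.04 and 4.75 at 24 h, against 7.95, 7.05 and 6.87 at 4 h (log2 -2.40 ± 0.41, adjusted p = 1.36e-04). Of 19 cytoskeleton genes, 6 were higher and 5 lower, or 3 lower when each array was centred on its median. Without array 1 of the 24 h group 3 were higher and 2 lower, and without its array 2, 3 were higher and 3 lower. Tubb5 and Tuba1b, tubulins of dividing cells, rose by 1.91 and 1.33, whereas Tubb2a was lower (-1.46). Of 16 lysosome genes, 3 were higher and 3 lower, with the proteases Ctsz at 1.65 and Ctsl at -1.35.

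Of 9 SLAM family genes and adaptors, 0 were higher and 3 lower, or 1 lower without array 2 of the 24 h group. Sh2d1a, which encodes the adaptor SAP, read 7.38 and 7.40 at 24 h, against 9.04, 8.82 and 8.97 at 4 h (log2 -1.55 ± 0.18, adjusted p = 1.45e-06). Slamf6, the receptor for which the third strain is named, read 6.59 and 6.19 at 24 h, against 7.13, 7.04 and 7.14 at 4 h (log2 -0.71 ± 0.19, adjusted p = 0.00805). This call was lost with an array left out and in a fit of the wild-type arrays alone (adjusted p = 0.878). In that fit the brightest probe set was picked again, so Slamf6 may have been read through another probe set. Of 10 RGS genes, 2 were higher and 3 lower, and none was higher without array 1 of the 24 h group. Rgs1 was lower (-1.44) beside Rgs2. For comparison, 12% of all genes were higher and 6.67% lower. In the list of T cell identity genes, Thy1 was higher (log2 0.91 ± 0.14, adjusted p = 3.80e-05) and Cd2 lower (log2 -1.35 ± 0.10, adjusted p = 5.50e-09).

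Other promoter motifs were also counted, where all genes are again those with a promoter entry. A CArG box was found in 2 of 17 immediate early genes with a promoter entry (11.8%), against 1.81% of all genes, and the CRE letters TGACGTCA in 0 of 17, against 2.03%. The E-box CACGTG was found in 8 of 41 ribosome biogenesis genes (19.5%), against 8.09%. The SRE-1 letters were found in 0 of 19 cholesterol genes, against 0.0999%. Both strands of a window of 300 bases were searched, and a match describes letters only.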
